A study of Mus musculus with 6 samples.

Results

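NRF2, encoded by Nfe2l2, is the transcription factor that drives much of the antioxidant program of mammalian cells. Its genes fall into branches, and 51 of them were followed here in cultured mouse microglia that could or could not lose the circadian repressor REV-ERBα. The 51 genes were taken by name from 55487 genes in the counts, a list drawn up with earlier results of these data known, and grouped by role into regulators, glutathione synthesis and peroxidases, glutathione transferases, thioredoxin and peroxiredoxin, heme breakdown, NADPH supply, detoxification, and catalase with the superoxide dismutases. Of these, 48 passed the expression filter and were tested among 11429 genes. Cortical microglia were grown from mouse pups of postnatal days 1 to 3 in mixed glial culture with GM-CSF, a myeloid growth factor. All 6 cultures carried Nr1d1 fl/fl, that is, loxP sites on both copies of the REV-ERBα gene, and all received 4-hydroxytamoxifen (4-OHT) at 1.5 μM, given by the labels as 2 days of treatment. The 3 Cre+ cultures came from pups with CAG::CreERT2, a drug-activated recombinase under a promoter active in most cell types, and the 3 Cre- cultures lacked it. The recombinase was thus not restricted to microglia among the cells of the culture, and Cre and its activation differed between the groups along with Nr1d1.

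In resting cells KEAP1, an adaptor of a ubiquitin ligase, holds NRF2 and marks it for degradation. Oxidants and electrophiles modify cysteines of KEAP1, NRF2 then accumulates without needing more of its own mRNA, pairs with a small MAF protein and binds antioxidant response elements. BACH1 pairs with the same small MAF proteins, represses many of the same genes, and is released from DNA by heme. The genes under this control supply cysteine and glutathione, join glutathione to electrophiles, reduce thioredoxin and peroxiredoxins, break down heme, and make the NADPH on which the reductases depend.

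The letters of the core antioxidant response element, TGACNNNGC, were searched on both strands in the RefSeq promoter windows, which hold 300 bases around an annotated start on GRCm38.p6. They occurred in a window of 14 of 45 members with an entry, or 31.1%, in 14.0% of all 27025 genes with an entry and in 17.3% of those that were also tested. Gclc, Gsr, Prdx6, Hmox1, Gsta4 and Abcc1 had no entry. Among the genes called as changed between the groups, 5 of 14 with an entry held the letters. Their stretches are printed first, and those of Gclm, Maff and Prdx1 follow as examples of members that held the letters and were not called. Gstm5, Pgd, Mafg, Sod1 and G6pdx also held the letters without being called, as did Gsta3, which was below the filter. Whether the letters go with the calls was not tested. Each stretch reads 5′ to 3′ on the strand of the gene, and capitals mark the match, which reads as its reverse complement where it lies on the other strand. The matches lie within chr2:75704885-75704913 for Nfe2l2, chr2:152105542-152105570 for Srxn1, chr6:138140461-138140489 for Mgst1, chr9:86695902-86695930 for Me1, chr10:82859104-82859132 for Txnrd1, chr3:122245413-122245441 for Gclm, chr15:79346499-79346527 for Maff and chr4:116685456-116685484 for Prdx1. The genes lie on the minus strand for Nfe2l2 and Me1 and on the plus strand for the other 6.
Nfe2l2: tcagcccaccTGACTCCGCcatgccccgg
Srxn1: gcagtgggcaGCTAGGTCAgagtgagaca
Mgst1: gcggggcttgGCACGGTCAggaggcgggg
Me1: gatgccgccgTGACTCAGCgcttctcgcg
Txnrd1: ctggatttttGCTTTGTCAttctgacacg
Gclm: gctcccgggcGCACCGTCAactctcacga
Maff: gggcgtctcaTGACTCTGCcactggaaag
Prdx1: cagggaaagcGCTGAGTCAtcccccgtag

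REV-ERBα binds single copies of the letters AGGTCA and direct repeats of them. The single site was present in the windows of 5 of 45 members, or 11.1%, against 18.1% of all genes with an entry and 14.7% of those tested. The members were Cat, Srxn1, Gss, Gstm1 and Gpx4, and the repeat spaced by 2 bases was in none of the windows of the 45. In Srxn1, AGGTCA overlaps the antioxidant element printed above. The matches of the other called members, Cat and Gstm1, and the second of Srxn1 are shown because they are the only others in windows of called members. They lie within chr2:103485342-103485367 for Cat and chr3:108017808-108017833 for Gstm1, both genes on the minus strand, and chr2:152105299-152105324 for Srxn1. These matches describe the letters of the windows only.
Cat: tgactctcagAGGTCAgagaacacca
Gstm1: ccaaacacacAGGTCAgtcctgctga
Srxn1: aaatgtgagtAGGTCAtcacacttgg

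Library totals lay between 87545868 and 110909129 counts on genes. Values below are in CPM, counts scaled to a TMM-normalized library total of 1000000, and a gene was called when its adjusted p-value from edgeR's quasi-likelihood test was at most 0.05. Nr1d1, the targeted gene, was at 2.35, 1.20 and 1.64 CPM in Cre- and at 1.00, 0.945 and 1.08 CPM in Cre+ cultures. The groups did not overlap, but the change was not called (log2 fold change -0.77, SE 0.25, adjusted p = 0.0945 from edgeR). Counts over the whole gene include exons outside the deleted part. Without Cre- replicate 2, Nr1d1 was called (log2 fold change -0.98, adjusted p = 0.0414 from edgeR). The summed level of 10 microglial markers was 7993 to 8337 CPM in Cre- and 7846 to 8101 CPM in Cre+ cultures, although P2ry12, a marker of resting microglia, stayed near or below 1 CPM. Astrocyte markers summed to 44.3 to 48.2 CPM and 42.6 to 48.6 CPM, and oligodendrocyte lineage markers to 73.4 to 83.5 and 70.5 to 75.0 CPM. Neuronal markers summed to 3.45 to 4.22 and 2.51 to 2.61 CPM, and endothelial markers to 1.78 to 2.58 and 1.28 to 1.51 CPM. Most of the astrocyte sum was Aldoc and Aldh1l1, and most of the oligodendrocyte sum Cspg4 and Mbp, none of them called. The other astrocyte markers were below 1 CPM in every library. Of these, Slc1a2, Gja1 and Aqp4 were 51.5%, 57.6% and 73.5% lower in Cre+ cultures with no overlap, while Slc1a3, S100b and Gfap overlapped. The 8 markers of fibroblasts and mural cells summed to 99.4 to 119 CPM in Cre- and 47.4 to 53.9 CPM in Cre+ cultures. Nearly all of that sum was Postn, the 1 called gene of the list. The other 7 markers, collagens included, were below 1 CPM in every library. Among them, Col1a1, Col1a2, Col3a1 and Dcn were 74.2%, 53.5%, 79.2% and 86.2% lower in Cre+ cultures with no overlap. Lum, Pdgfrb and Acta2 overlapped. Map2, Syt1 and Stmn2 (neuronal), Pecam1 and Emcn (endothelial), and Olig1, Mog and Cspg4 (oligodendrocyte) were also lower with no overlap. The remaining markers of those lists overlapped. In no marker list was a gene at 0 in all libraries. The part of these marker differences in the results below was not tested.

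The antioxidant genes were mostly lower in Cre+ microglia. Of 48 tested members, 15 were called, 13 of them lower and 2 higher in Cre+ cells, or 31.2%, where 5.07% of all genes tested were called. The 13 lower calls stand beside 2.56% of all genes tested called lower, and the 2 higher calls, Nfe2l2 itself and Mgst2, beside 2.50% called higher. In sign, 36 of 48 members were lower and 12 higher, with a median log2 fold change of -0.11, while the median over all genes tested was 0.00. The 3 Cre+ cultures did not overlap the 3 Cre- cultures for 26 members, or 54.2%, as against 24.0% of all genes tested. In such bulk RNA, fewer cells that express a gene and less RNA per cell cannot be told apart. Called falls ranged from 11.8% lower for Mgst1 to 42.2% lower for Me1.

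**Figure D1:**
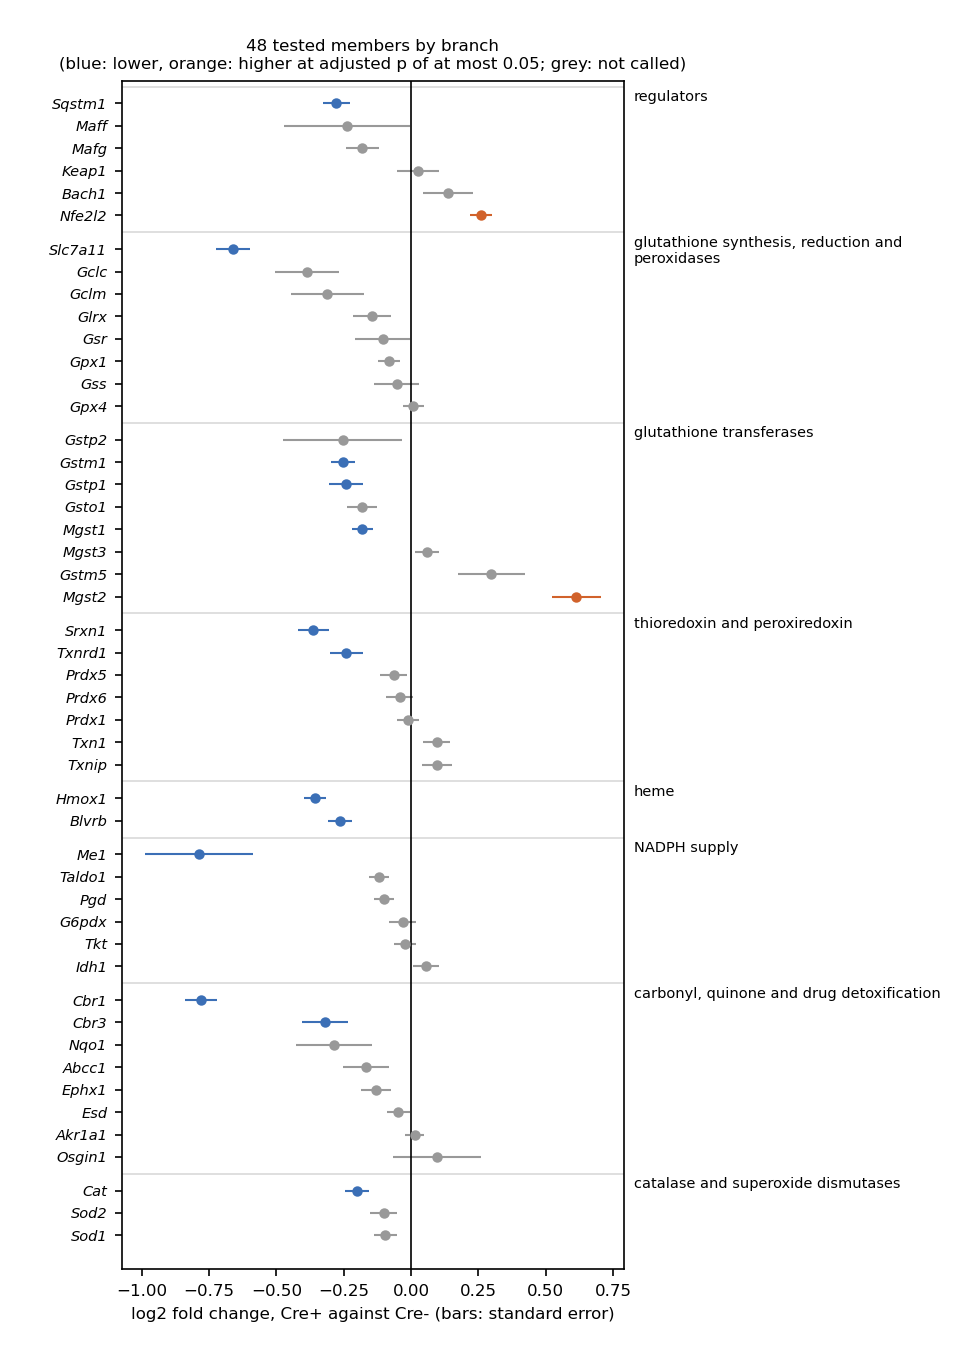
The x axis gives the log2 fold change of Cre+ against Cre- cultures for the 48 tested members, with bars for the standard error, and the y axis lists the genes by branch. Called genes are blue where lower (13) and orange where higher (2), and every branch holds at least 1 blue gene.

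The regulators did not move together. Nfe2l2, on chromosome 2 from 75675513 to 75704641 (GRCm38), was at 369, 387 and 382 CPM in Cre- and at 467, 449 and 447 CPM in Cre+ cultures. Every Cre+ culture was higher, and the transcript of NRF2 rose by 19.8% (log2 fold change 0.26, SE 0.04, adjusted p = 0.00157 from edgeR). Sqstm1 encodes p62, a selective autophagy receptor that binds KEAP1 and is itself an NRF2 target. It was at 145, 144 and 156 CPM in Cre- and at 124, 126 and 117 CPM in Cre+ cultures. Its transcript thus fell by 17.5%, with no overlap (log2 fold change -0.28, SE 0.05, adjusted p = 0.00439 from edgeR). Exons of Mrnip on the opposite strand cover 580 bases of Sqstm1 and cannot be told apart without strand, but Mrnip as a whole was at 1.37 CPM in Cre- cells.

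Keap1 was at 24.3, 26.9 and 25.9 CPM in Cre- and at 24.5, 26.1 and 27.9 CPM in Cre+ cultures. These groups overlapped, and no change was called (log2 fold change 0.03, SE 0.08, adjusted p = 0.911 from edgeR). Bach1 was at 11.6, 11.3 and 11.5 CPM in Cre- and at 12.7, 12.6 and 12.6 CPM in Cre+ cultures. All 3 Cre+ values of this repressor were higher, but the change was not called (log2 fold change 0.14, SE 0.09, adjusted p = 0.472 from edgeR). Bach1 amounted to between 2.93% and 3.15% of the Nfe2l2 CPM in Cre- cultures and to between 2.71% and 2.82% in Cre+ cultures, both counts per gene and not corrected for length. Mafg, a small MAF partner of NRF2 and BACH1, was at 75.1, 71.6 and 68.2 CPM in Cre- and at 68.4, 60.2 and 60.9 CPM in Cre+ cultures (log2 fold change -0.18, SE 0.06, adjusted p = 0.118 from edgeR). The highest Cre+ value lay just above the lowest Cre- value. Maff, another small MAF, was near the filter at 1.47, 2.63 and 1.67 CPM in Cre- and at 1.59, 1.68 and 1.64 CPM in Cre+ cultures. Only Cre- replicate 2 stood above the rest, and without it the log2 fold change of Maff went from -0.24 to 0.06, uncalled in both.

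The 7 textbook targets of NRF2, Slc7a11, Gclc, Gclm, Txnrd1, Srxn1, Hmox1 and Nqo1, were all lower in Cre+ cultures in sign, with a median log2 fold change of -0.36. For 4 of them the fall was called, where 2.56% of all genes tested were called lower, and the groups did not overlap for 5, where 24.0% of all genes tested did not. The list is one of known targets and was chosen with these results known. The other 3, Gclc, Gclm and Nqo1, had the fewest counts of the 7, with no correction for length, and were not called.

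**Figure D2:**
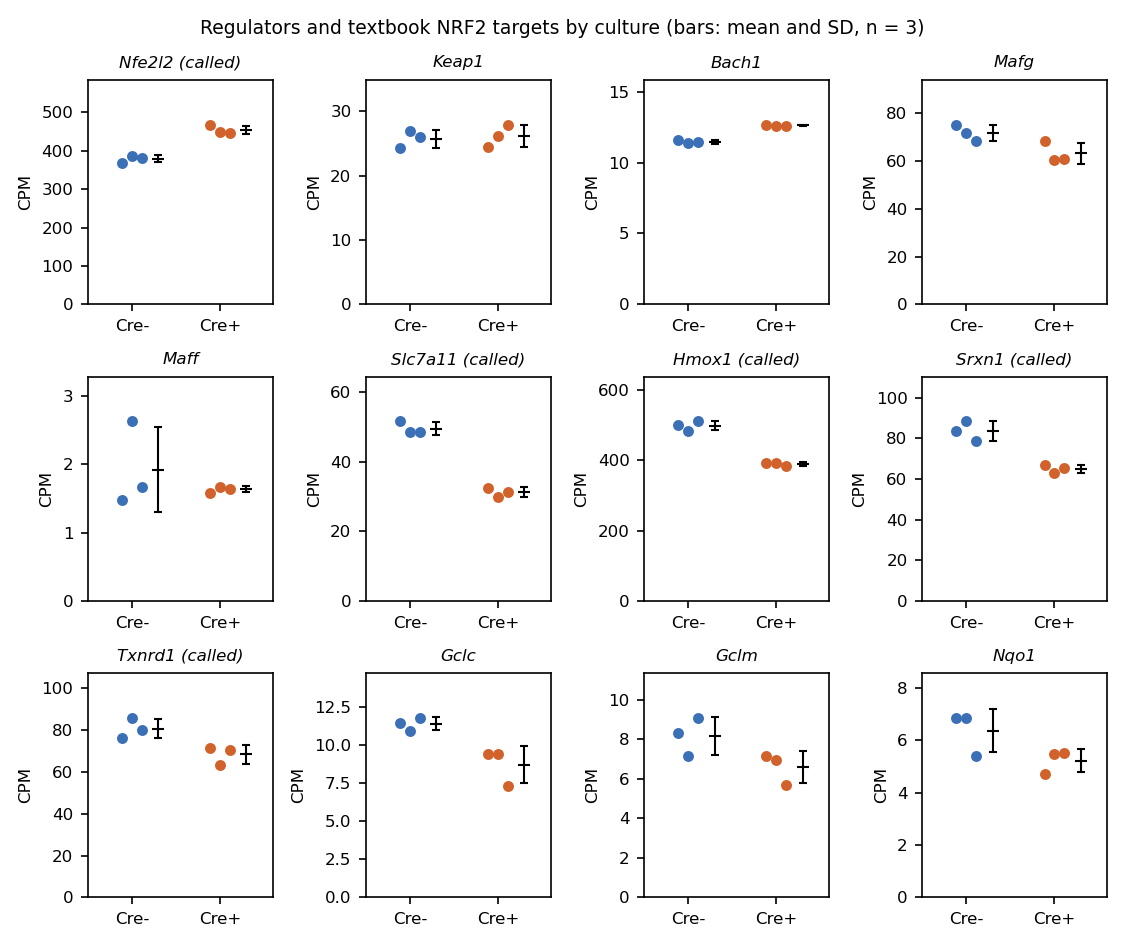
Each panel plots the CPM of 1 gene (y axis, from 0) in 3 Cre- (blue) and 3 Cre+ (orange) cultures, with the mean and SD beside the points. Nfe2l2 separates upward while Slc7a11, Hmox1, Srxn1 and Txnrd1 separate downward, and Keap1, Mafg, Maff, Gclm and Nqo1 overlap between the groups.

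Heme breakdown, with 2 members, was the only branch in which every member was called lower. Hmox1 encodes heme oxygenase 1, which opens heme into biliverdin, iron and carbon monoxide, and is repressed by BACH1. It lies on chromosome 8 from 75093621 to 75100589 and was at 502, 484 and 511 CPM in Cre- and at 392, 392 and 384 CPM in Cre+ cultures. The spread within each group was small beside the gap, and Hmox1 fell by 21.9% (log2 fold change -0.36, SE 0.04, adjusted p = 6.24e-05 from edgeR). Blvrb, biliverdin reductase B, was at 333, 337 and 334 CPM in Cre- and at 293, 267 and 277 CPM in Cre+ cultures. It fell by 16.6% with no overlap (log2 fold change -0.26, SE 0.04, adjusted p = 0.00243 from edgeR). Per kilobase of annotated exon, the branch summed to 405 ± 7.04 CPM in Cre- and 323 ± 5.53 CPM in Cre+ cultures (SD, n = 3 each), which was 20.4% lower. Among other heme genes, 7 were tested and 3 called, beside 5.07% of all genes tested. Hmox2 and Blvra, the other heme oxygenase and the other biliverdin reductase, were not called. Their log2 fold changes were -0.004 and 0.04 (adjusted p = 0.979 and 0.694 from edgeR), with overlapping groups. Slc48a1, which carries heme out of lysosomes, was at 304, 333 and 330 CPM in Cre- and at 268, 264 and 265 CPM in Cre+ cultures and also fell (log2 fold change -0.28, SE 0.05, adjusted p = 0.00165 from edgeR). Fth1, the ferritin heavy chain that stores iron, fell by 8.48% from a mean of 56432 CPM (log2 fold change -0.13, SE 0.03, adjusted p = 0.0201 from edgeR). Alas1, the first enzyme of heme synthesis and a known REV-ERBα target, ran the other way, from 1538, 1675 and 1575 CPM in Cre- to 1772, 1865 and 1907 CPM in Cre+ cultures (log2 fold change 0.21, SE 0.04, adjusted p = 0.00830 from edgeR). The call of Fth1 was lost without Cre- replicate 3, Cre+ replicate 1 or Cre+ replicate 2 (adjusted p = 0.0875, 0.0762 and 0.0658 from edgeR).

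In the glutathione branch, 1 of 8 members was called, the cystine importer, beside 5.07% of all genes tested. Slc7a11 encodes xCT, the exchanger that brings in cystine against glutamate. It lies on chromosome 3 from 49892526 to 50443614 and was at 51.5, 48.4 and 48.3 CPM in Cre- and at 32.5, 29.9 and 31.3 CPM in Cre+ cultures. The lowest Cre- value was well above the highest Cre+ value, and Slc7a11 fell by 36.8% (log2 fold change -0.66, SE 0.06, adjusted p = 1.21e-05 from edgeR). A stretch of 373 bases of its transcript matches the tubulins Tuba1a, Tuba1b and Tuba1c at 95.4% to 96.2%. These tubulins had log2 fold changes of 0.12, 0.11 and 0.01, none of them called. Slc3a2, the heavy chain that partners xCT, was not called (log2 fold change -0.15, adjusted p = 0.0750 from edgeR).

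Glutathione synthesis itself begins with glutamate-cysteine ligase, made of the catalytic subunit Gclc and the modifier Gclm. Gclc was at 11.5, 10.9 and 11.8 CPM in Cre- and at 9.43, 9.40 and 7.31 CPM in Cre+ cultures. The groups were apart, but edgeR did not call the gene (log2 fold change -0.39, SE 0.12, adjusted p = 0.0772). Of 16 alternative fits, only DESeq2's Wald test called Gclc (adjusted p = 0.0240). Gclm was at 8.30, 7.17 and 9.08 CPM in Cre- and at 7.17, 6.94 and 5.67 CPM in Cre+ cultures, overlapping (log2 fold change -0.31, SE 0.13, adjusted p = 0.218 from edgeR). The ratio of Gclc to Gclm in CPM, with no correction for length, was 1.30 to 1.52 in Cre- and 1.29 to 1.35 in Cre+ cultures, so the balance of the subunits overlapped between groups. Gss, which completes glutathione, and Gsr, which reduces its oxidized form, had log2 fold changes of -0.05 and -0.11, with overlapping groups. Glrx, a glutaredoxin, was lower in every Cre+ culture without being called (log2 fold change -0.15, adjusted p = 0.275 from edgeR).

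The abundant peroxidases of this branch stayed near their Cre- level. Gpx1, the cytosolic glutathione peroxidase, averaged 2183 ± 116 CPM in Cre- against 2063 ± 26.4 CPM in Cre+ cultures (SD, n = 3 each, log2 fold change -0.08), and was the most abundant of the branch per kilobase. Gpx4, which reduces lipid peroxides in membranes and restrains ferroptosis, was at 767, 768 and 788 CPM in Cre- and at 804, 768 and 763 CPM in Cre+ cultures, which overlapped (log2 fold change 0.01). Its pseudogene Gpx4-ps2 shares 99.7% of 733 bases and held 92.8 CPM in Cre- cells, so some reads of Gpx4 may stand on the copy. Of the 11 other glutathione genes tested, Gpx3, the secreted glutathione peroxidase, was the 1 called, beside 5.07% of all genes tested. Gpx3 was at 529, 527 and 530.0 CPM in Cre- and at 633, 590.0 and 639 CPM in Cre+ cultures, a rise with no overlap (log2 fold change 0.23, SE 0.04, adjusted p = 0.00410 from edgeR).

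The glutathione transferases, which attach glutathione to electrophiles, split by member. Of 10 members, 8 were tested, 3 fell and 1 rose, beside 5.07% of all genes tested called, and 7 of the 8 tested did not overlap between the groups, beside 24.0% of all genes tested. Gstm1, the mu-class enzyme with the highest level per kilobase in the branch, was at 447, 452 and 482 CPM in Cre- and at 396, 372 and 390 CPM in Cre+ cultures. It fell by 16.2% (log2 fold change -0.25, SE 0.04, adjusted p = 0.00313 from edgeR), and the pseudogene Gstm2-ps1, which shares 97.9% of 657 bases with it, held 7.52 CPM in Cre- cells. Mgst1, a microsomal transferase that also has peroxidase activity, was at 493, 485 and 504 CPM in Cre- and at 436, 432 and 439 CPM in Cre+ cultures. It fell by 11.8%, a small change next to a smaller spread (log2 fold change -0.18, SE 0.04, adjusted p = 0.0137 from edgeR). The call was lost without Cre- replicate 3 or Cre+ replicate 2 (adjusted p = 0.0553 and 0.0506 from edgeR). Gstp1, the pi-class enzyme, was at 46.9, 44.6 and 49.7 CPM in Cre- and at 40.6, 38.4 and 40.5 CPM in Cre+ cultures (log2 fold change -0.24, SE 0.06, adjusted p = 0.0379 from edgeR). Its fall was called without Cre- replicate 2 but not without any other library, where the adjusted p-value was 0.0668 without Cre- replicate 1, 0.144 without Cre- replicate 3, and 0.0757, 0.130 and 0.0911 without Cre+ replicates 1, 2 and 3 (edgeR). The copy Gstp2 took 2.67% to 3.57% of the counts of the pair in Cre- and 2.65% to 3.75% in Cre+ cultures, and was itself at 1.10 to 1.74 CPM with overlapping groups.

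Mgst2 moved against its neighbours. Mgst2, a microsomal transferase that can also make leukotriene C4, lies on chromosome 3 from 51660360 to 51682677. It was at 10.8, 12.4 and 11.3 CPM in Cre- and at 17.6, 18.2 and 17.1 CPM in Cre+ cultures. The rise was 53.1%, the larger of the 2 called rises (log2 fold change 0.61, SE 0.09, adjusted p = 0.000987 from edgeR). The ratio of Mgst2 to Mgst1 in CPM was 0.0218 to 0.0256 in Cre- and 0.0389 to 0.0421 in Cre+ cultures. It restates the rise of Mgst2 and the fall of Mgst1, each with no overlap, and is no separate evidence. Mgst3 and Gstm5 were also higher in every Cre+ culture without being called (log2 fold changes 0.06 and 0.30). Gsto1, the omega-class enzyme, was lower in every Cre+ culture without being called (log2 fold change -0.18, adjusted p = 0.0773 from edgeR). Of 16 alternative fits, only DESeq2's Wald test called Gsto1 (adjusted p = 0.0293).

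Both alpha-class members were below the filter. Gsta3 had 145, 164 and 134 counts in Cre- and 84, 51 and 77 counts in Cre+ cultures, 57.9% lower in CPM with no overlap. It exceeded 1 CPM only in the Cre- cultures, and it was called under each of 3 looser filters, with log2 fold changes of -1.24 to -1.17 and adjusted p-values of 0.00553 to 0.0138 (edgeR). In the filter that asks for 3 libraries, Gsta3 passes through the Cre- cultures alone. Gsta4 had 49, 62 and 38 counts in Cre- and 42, 57 and 18 counts in Cre+ cultures, with wide overlap. Per kilobase, the transferases summed to 781 ± 21.8 CPM in Cre- and 702 ± 5.98 CPM in Cre+ cultures (SD, n = 3 each), 10.2% lower with no overlap. Of 14 other transferases, 7 were tested and none was called by edgeR, with 0 of them at an unadjusted p under 0.05.

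**Figure D3:**
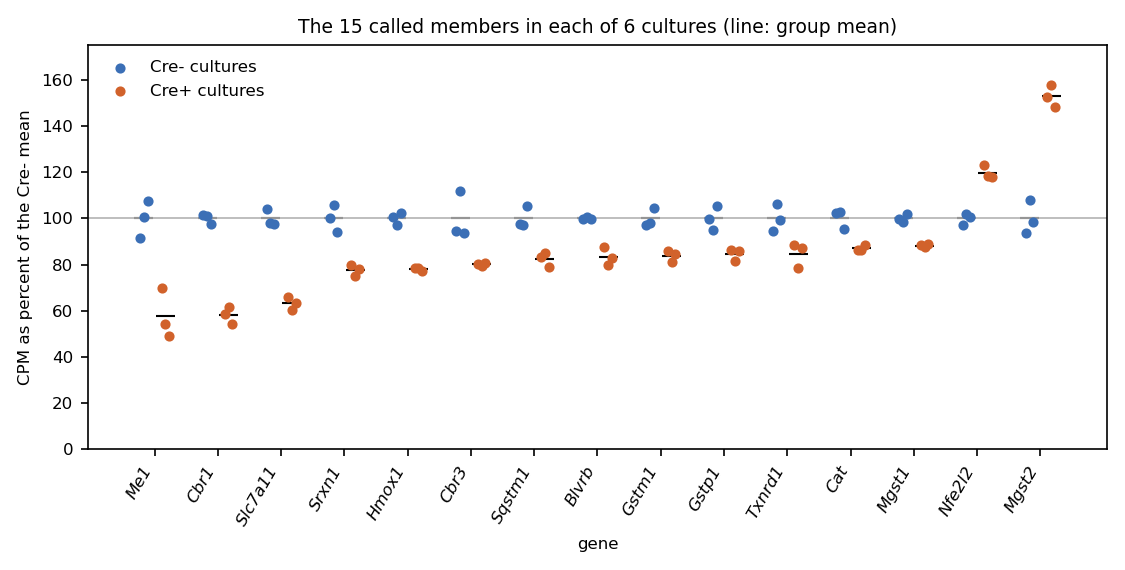
The y axis gives the CPM of each culture as a percent of the gene's Cre- mean for the 15 called members on the x axis, ordered by fold change, with black lines for group means. Every orange Cre+ point lies outside the blue Cre- points of its gene, from 42.2% lower for Me1 to 53.1% higher for Mgst2.

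In the thioredoxin branch 2 of 7 members, Srxn1 and Txnrd1, were called lower, beside 2.56% of all genes tested. The other 5 were not called. Srxn1, sulfiredoxin, rescues peroxiredoxins whose cysteine has been overoxidized. It lies on chromosome 2 from 152105516 to 152111376 and was at 83.8, 88.3 and 78.6 CPM in Cre- and at 66.8, 62.7 and 65.4 CPM in Cre+ cultures. It fell by 22.3% with no overlap (log2 fold change -0.36, SE 0.06, adjusted p = 0.00137 from edgeR). Txnrd1, the cytosolic thioredoxin reductase that uses NADPH, was at 76.3, 85.7 and 79.9 CPM in Cre- and at 71.3, 63.2 and 70.2 CPM in Cre+ cultures. It fell by 15.4%, with the groups apart (log2 fold change -0.24, SE 0.06, adjusted p = 0.0356 from edgeR). The call of Txnrd1 was lost without Cre- replicate 2 or 3 (adjusted p = 0.145 and 0.0867) and without Cre+ replicate 2 or 3 (adjusted p = 0.143 and 0.0749, all from edgeR). Both Srxn1 and Txnrd1 carry the antioxidant element letters printed above, as does Prdx1 of the same branch, which was not called.

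Txn1, thioredoxin, and Txnip, its inhibitor, had log2 fold changes of 0.09 and 0.10, each with overlap. Prdx1, a peroxiredoxin and the most abundant of the 51 per kilobase, was at 7599, 8147 and 8456 CPM in Cre- and at 7869, 8270 and 7864 CPM in Cre+ cultures. These values overlapped throughout (log2 fold change -0.01, SE 0.04, adjusted p = 0.922 from edgeR). Its pseudogene Gm21399, with 98.3% of 597 bases in common, held 301 CPM in Cre- cells. Prdx5 and Prdx6 had log2 fold changes of -0.06 and -0.04 with overlap. Because Prdx1 held 81.7% of the branch, the summed level per kilobase was 3243 ± 158 CPM in Cre- and 3215 ± 84.5 CPM in Cre+ cultures (SD, n = 3 each). None of 12 other thioredoxin genes tested was called by edgeR, and 1 of them had an unadjusted p under 0.05.

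The enzymes that make NADPH, the reductant of both the glutathione and the thioredoxin system, were for the most part uncalled. Me1, cytosolic malic enzyme, was low at 2.55, 2.80 and 3.00 CPM in Cre- and at 1.94, 1.51 and 1.37 CPM in Cre+ cultures. It had the largest fall in log2 fold change among the tested members (-0.79, SE 0.20, adjusted p = 0.0340 from edgeR), with the widest error among the called ones. The call was lost without Cre- replicate 2 or 3 (adjusted p = 0.0779 and 0.110) and without Cre+ replicate 2 or 3 (adjusted p = 0.108 and 0.133, all from edgeR). Of the pentose phosphate enzymes, Pgd and Taldo1 were lower in every Cre+ culture without being called (log2 fold changes -0.10 and -0.12, adjusted p = 0.141 and 0.0924 from edgeR). G6pdx, the first enzyme of the pathway, averaged 137 ± 6.42 CPM in Cre- against 134 ± 2.99 CPM in Cre+ cultures (SD, n = 3 each), and Tkt at 446 ± 7.39 and 440 ± 5.85 CPM, both with overlap. Idh1, cytosolic isocitrate dehydrogenase, had a log2 fold change of 0.05. The summed level per kilobase was 806 ± 7.31 CPM in Cre- and 762 ± 3.83 CPM in Cre+ cultures (SD, n = 3 each), 5.44% lower with no overlap, and Taldo1 made up 59.0% of it in Cre- cells.

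Of 8 other NADPH genes tested, 2 were called, both lower, beside 2.56% of all genes tested called lower. H6pd, the pentose phosphate enzyme of the endoplasmic reticulum, was at 13.1, 11.2 and 12.9 CPM in Cre- and at 8.93, 10.2 and 8.19 CPM in Cre+ cultures (log2 fold change -0.44, SE 0.12, adjusted p = 0.0369 from edgeR). Idh2, the mitochondrial isocitrate dehydrogenase, was at 69.6, 74.6 and 76.9 CPM in Cre- and at 64.1, 63.2 and 61.0 CPM in Cre+ cultures (log2 fold change -0.23, SE 0.06, adjusted p = 0.0256 from edgeR). Neither gene overlapped between the groups. H6pd lost its call without Cre- replicate 1 or 3 and without Cre+ replicate 1 or 3 (adjusted p = 0.0987, 0.116, 0.103 and 0.149 from edgeR), and Idh2 without Cre- replicate 2 or 3 and without Cre+ replicate 2 or 3 (adjusted p = 0.0784, 0.108, 0.0664 and 0.104 from edgeR).

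Detoxification held the member with the smallest p-value. Cbr1, a carbonyl reductase that uses NADPH to reduce aldehydes and quinones, lies on chromosome 16 from 93605853 to 93610505 and was at 77.6, 77.3 and 74.7 CPM in Cre- and at 44.8, 47.2 and 41.6 CPM in Cre+ cultures. It fell by 41.8% with no overlap (log2 fold change -0.78, SE 0.06, adjusted p = 8.17e-07 from edgeR). Its neighbour and relative Cbr3 was at 22.6, 26.7 and 22.3 CPM in Cre- and at 19.1, 18.9 and 19.3 CPM in Cre+ cultures, a smaller fall (log2 fold change -0.32, SE 0.08, adjusted p = 0.0394 from edgeR). The ratio of Cbr1 to Cbr3 in CPM was 2.90 to 3.44 in Cre- and 2.16 to 2.49 in Cre+ cultures, with no overlap. Cbr3 lost its call without Cre- replicate 2 and without Cre+ replicates 1, 2 or 3 (adjusted p = 0.169, 0.100, 0.111 and 0.113 from edgeR), whereas Cbr1 kept its call without any single library.

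Nqo1, the quinone reductase often read as a gauge of NRF2, had few counts in these cells. It was at 6.84, 6.86 and 5.42 CPM in Cre- and at 4.71, 5.47 and 5.52 CPM in Cre+ cultures. Cre- replicate 3 lay among the Cre+ cultures, and Nqo1 was not called (log2 fold change -0.29, SE 0.14, adjusted p = 0.284 from edgeR). Akr1a1, an aldehyde reductase, was the most abundant of the branch per kilobase and averaged 3831 ± 124 CPM in Cre- against 3865 ± 58.9 CPM in Cre+ cultures (SD, n = 3 each). Esd, Ephx1 and Abcc1, an esterase, an epoxide hydrolase and a glutathione conjugate exporter, had log2 fold changes of -0.05, -0.13 and -0.17, and of these only Ephx1 was lower in every Cre+ culture. Osgin1 ranged from 7.87 to 11.7 CPM in Cre- and from 8.78 to 13.2 CPM in Cre+ cultures. Aox1, an aldehyde oxidase below the filter, had 118, 41 and 68 counts in Cre- and 59, 23 and 4 counts in Cre+ cultures, which overlapped, and it was called with no filter (log2 fold change -1.53, adjusted p = 0.0165 from edgeR) but not with filterByExpr (adjusted p = 0.146 from edgeR). None of 11 other detoxification genes tested was called by edgeR, and 2 had an unadjusted p under 0.05.

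Catalase, which splits hydrogen peroxide without NADPH, fell. Cat was at 364, 366 and 339 CPM in Cre- and at 307, 308 and 316 CPM in Cre+ cultures, 13.0% lower with no overlap (log2 fold change -0.20, SE 0.04, adjusted p = 0.0147 from edgeR). The call was lost without Cre- replicate 2, Cre+ replicate 1 or Cre+ replicate 2 (adjusted p = 0.0724, 0.05002 and 0.0539 from edgeR, the second just above the threshold). Sod1 and Sod2, the cytosolic and mitochondrial superoxide dismutases, were lower in every Cre+ culture without being called (log2 fold changes -0.10 for each, adjusted p = 0.232 and 0.284 from edgeR).

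**Figure D4:**
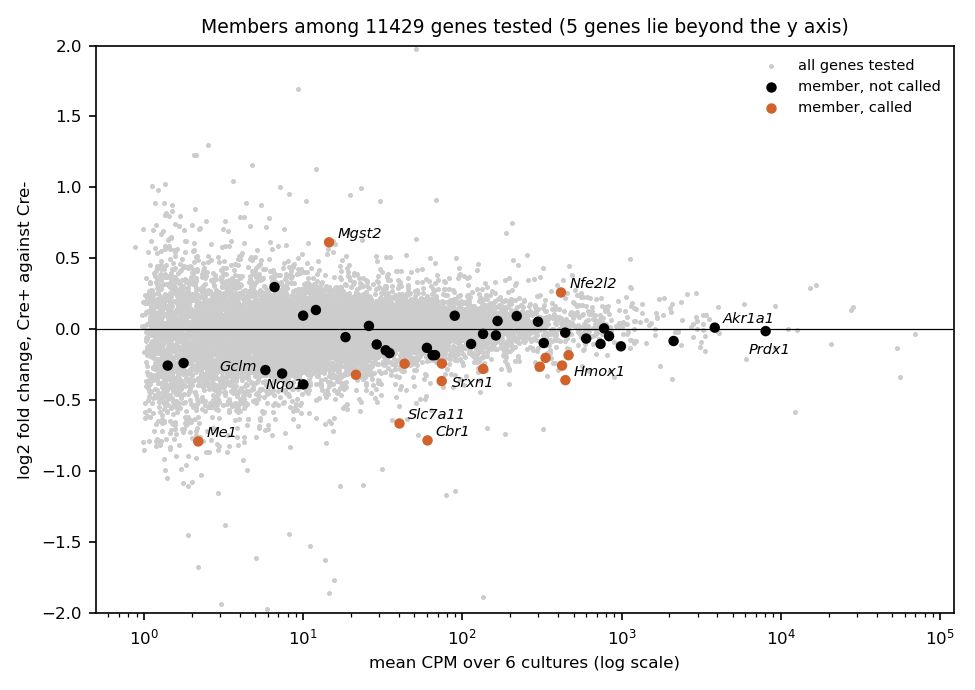
The x axis gives the mean CPM over 6 cultures on a log scale and the y axis the log2 fold change of Cre+ against Cre- for all 11429 genes tested (grey), members not called (black) and members called (orange), with 5 genes beyond the axis. Called members span low to high levels, from Me1 to Mgst1, while Prdx1 and Akr1a1, the members with the highest CPM, lie near 0.

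Beyond the 51 genes, 66 of 86 other genes of these pathways were tested. Of these, 7 were called, 5 lower and 2 higher, or 10.6%, again beside 5.07% of all genes tested. In median their log2 fold change came to -0.01, with 36 lower and 30 higher in sign, beside a median of -0.11 for the 51. Besides the heme, peroxidase and NADPH genes given above, the called gene was Mafk, another small MAF protein. Mafk was at 26.8, 28.4 and 29.2 CPM in Cre- and at 21.1, 20.3 and 22.9 CPM in Cre+ cultures, a fall with no overlap (log2 fold change -0.39, SE 0.08, adjusted p = 0.00681 from edgeR).

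Branches differed in how their falls met their most abundant genes. By summed level per kilobase, the 2 heme breakdown members, Hmox1 and Blvrb, were 20.4% lower in Cre+ cultures. The catalase and dismutase genes were 10.3% lower and the transferases 10.2% lower, and each of these sums had no overlap. The glutathione synthesis and peroxidase branch was 4.24% lower, the thioredoxin branch 0.859% lower and detoxification 0.899% lower, each with overlap. The regulators alone summed higher, at 176 ± 4.00 CPM per kilobase in Cre+ against 165 ± 3.22 in Cre- cultures (SD, n = 3 each), with Nfe2l2 as 60.6% of the Cre- sum. These sums are descriptions, and the differences between branches were not tested.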

How the data were processed

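RNA of 6 microglial cultures, 3 Cre- and 3 Cre+, was sequenced by the authors as paired reads. The deposited counts are whole numbers per Ensembl gene, made by the authors with STAR and featureCounts on GRCm38 (versions 2.7.9a and 2.0.3 in the submitters' processing notes). The deposited CPM and FPKM were made by the authors from these counts, by library total and then by gene length, and were used only to check units. Between 62.0% and 68.4% of counts from 1 to 20 were even, so that the mates of a pair seem to have been counted separately. The kit does not mark strand.

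After removal of 356 rRNA genes, those over 1 CPM in 4 or more libraries entered the quasi-likelihood test of edgeR 4.0.16 (R 4.3.3, TMM factors 0.986 to 1.01), adjusted by Benjamini-Hochberg over all of them, at a threshold of 0.05. SE is the log2 fold change over the square root of F. The coefficient of variation between cultures was 10.0% at the common dispersion. Nothing in the labels says whether cultures shared pups, so p-values measure the spread between these cultures. Levels per kilobase use the summed exon length. Alternatives were DESeq2 1.42.0, limma 3.58.1 (voom, with and without quality weights, the former being the fit of the study), other scalings and filters, a replicate block, copies summed, a minimum log2 fold change of 0.5, and each library left out with the genes tested kept the same. The fitting was tested on simulated data. Copies were sought with blastn 2.17.0 (at least 95% identity over 100 bases), overlaps in GENCODE M21. Members and lists were chosen with earlier results of these data known. Given in full are called members, members below the filter, regulators and textbook targets, then called genes among the other pathway genes. Postn, P2ry12, the other cell type markers named, Hmox2, Blvra, the tubulins, Slc3a2 and the copies fall outside this rule and were named after their values were seen. Plots were drawn with matplotlib.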

Additional observations from a re-analysis of the deposited data

How the results depend on the processing

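Of the 15 called members, Nfe2l2, Slc7a11, Mgst2, Srxn1, Hmox1 and Cbr1 were called in all 16 refits (other scalings, filters and tests, the replicate block, copies summed and each library left out), and no called member changed sign in any. With the minimum log2 fold change of 0.5, only Slc7a11, Mgst2, Me1 and Cbr1 remained called. Among all genes, 1528 were called with no filter, 886 by DESeq2's Wald test, 161 with a minimum log2 fold change of 0.5, and 317 to 448 with 1 library left out. The member count was 9 with no filter, 4 with the minimum log2 fold change of 0.5, and 9 to 14 with 1 library left out (9 without Cre+ replicate 2). For the other pathway genes it was 4 with filterByExpr, 4 with the replicate block, 0 with the minimum log2 fold change of 0.5, and 4 to 7 with 1 library left out (4 without Cre- replicate 3). With no filter, which shifted the median log2 fold change of all genes by 0.08, the calls of Sqstm1 (adjusted p = 0.0663 from edgeR), Gstm1 (0.0639) and Blvrb (0.0581) were lost, and those of Gstp1, Mgst1, Txnrd1, Cbr3 and Cat both there and with filterByExpr. The cause was not tested. Sign changed only for uncalled members. With no filter the log2 fold change was 0.024 for Gss, 0.066 for Prdx1, 0.014 for Prdx5, 0.036 for Prdx6, 0.047 for G6pdx, 0.056 for Tkt and 0.031 for Esd, and with filterByExpr 0.030 for Prdx1, 0.00036 for Prdx6, 0.011 for G6pdx and 0.020 for Tkt. With 1 library left out it ran from -0.024 to 0.072 for Keap1, -0.40 to 0.058 for Maff, -0.19 to 0.0023 for Gsr, -0.017 to 0.022 for Gpx4, -0.061 to 0.021 for Prdx1, -0.022 to 0.028 for Akr1a1 and -0.12 to 0.25 for Osgin1. Nr1d1 ran from -0.98 to -0.50, past the threshold only without Cre- replicate 2.

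Deviations of same-numbered cultures correlated at 0.01, -0.02 and -0.04 across genes, and those of differently numbered cultures at -0.03 to 0.06. These values do not show a pairing by replicate number, and the labels do not give one. With the replicate block 430 of all genes and 11 members were called, Gstp1, Txnrd1, Me1 and Cbr3 losing theirs (adjusted p = 0.0641, 0.0767, 0.0554 and 0.0690 from edgeR).

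With 3 cultures a group, Bach1 and Gclm were not called at Cre- means of 11.5 and 8.18 CPM. The groups of Bach1 did not overlap and those of Gclm did. Fth1, at a far higher level, was called at a log2 fold change of -0.13. Mgst2 and Me1, at Cre- means of 11.5 and 2.78 CPM, were called at 0.61 and -0.79. Whether level accounts for the missing calls was not tested. Kits without strand leave Sqstm1, Prdx5, Txnip, G6pdx, Keap1, Gstm5, Gss, Gclm and Me1 mixed with genes that overlap on the opposite strand. In Cre- cells, the overlapping gene as a whole was at 1.26 CPM beside 5.94 CPM for Gstm5 and 2.84 beside 8.18 CPM for Gclm. It was at 41.9 beside 137 CPM for G6pdx, but at 0.225 beside 25.7 CPM for Keap1.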

Other observations

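Spread within a group differed widely among members. Bach1 lay between 12.6 and 12.7 CPM in the 3 Cre+ cultures and Cbr3 between 18.9 and 19.3 CPM, while Osgin1 lay between 8.78 and 13.2 CPM in the same cultures. Cre- replicate 2 alone held 2.63 CPM of Maff, and Cre+ replicate 3 alone held the lowest Gclc, Gclm, Gsr and Aox1 of the 6 cultures. Gpx3, at 527 to 530 CPM, varied less among the Cre- cultures than among the Cre+ cultures, at 590 to 639 CPM.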
